A study of Homo sapiens with 12 samples.

Results

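The 9 genes described here encode enzymes that make and break down glycogen and the subunits that bring protein phosphatase 1 to it: PGM1, UGP2, GYS1, GBE1, PYGB, PYGL, PPP1R3B, PPP1R3C and PPP1R3D. They were taken by name from the 57820 gene IDs of the deposited count files. Each matched 1 ID, and 8 of the 9 held enough counts to be tested among 16999 genes; PYGL did not. The cells were AsPC-1, a human cell line derived from a pancreatic tumour. Each of 2 siRNA treatments, siControl and siARNT, was sequenced in normoxia and in hypoxia, which gives 4 groups of 3 libraries (replicates A, B and C). Normoxia was 21% O2 and hypoxia 1% O2 for 24 h. All 4 groups had been lipofected with an siRNA, either a scrambled one (siControl) or one against ARNT (siARNT), and RNA was taken 48 h later. The study asked which responses to low oxygen need the transcriptional activity of the hypoxia-inducible factors (HIF), whose alpha subunits act with ARNT. ARNT also pairs with the aryl hydrocarbon receptor, so siARNT is not specific to HIF.

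Glycogen is the branched store of glucose. To build it, a cell turns glucose 6-phosphate into glucose 1-phosphate, activates that to UDP-glucose, adds the glucose to a growing chain with glycogen synthase and makes branch points with the branching enzyme; phosphorylase and the debranching enzyme take it apart again. Protein phosphatase 1, held on the glycogen particle by a targeting subunit, removes phosphate from both synthase and phosphorylase, which turns synthesis on and breakdown off. Cultured cancer cells are known to lay down glycogen in low oxygen, and several genes of this route are known HIF targets. Glycogen itself and enzyme activity were not measured here. In bulk RNA, fewer cells that express a gene and less RNA per cell cannot be told apart.

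The libraries held from 38.5 to 84.3 M counts in genes. ARNT, measured first as the check of the siRNA, stood at 60.7, 63.6 and 63.0 counts per M (CPM, scaled by the TMM method) in normoxia siControl and at 13.3, 12.8 and 13.95 CPM in normoxia siARNT. In hypoxia it stood at 70.3, 64.85 and 72.2 CPM in siControl and at 15.99, 15.8 and 14.1 CPM in siARNT, so every siARNT library lay below every siControl library. Its log2 fold change with siARNT was -2.22 in normoxia (edgeR adjusted p = 8.99e-09) and -2.17 in hypoxia (edgeR adjusted p = 2.65e-09). The 6 epithelial markers summed to between 3700 and 8090 CPM in the 12 libraries. The summed levels of the other lists were 0.408 to 1.05 CPM for 3 immune markers, 0.302 to 0.966 for 2 endothelial, 0.327 to 0.644 for 3 islet and at most 0.0429 for 3 acinar markers; CD3E, INS and SST were at 0 in every library, while CD68, VWF and GCG were above 0 in every one. Of the fibroblast markers only LUM was abundant (335 to 592 CPM), with the other 3 at 0.988 CPM or less. The libraries differed in how level depends on the GC content of a gene. The slope of log2 CPM on GC was steepest in normoxia siARNT B (0.424 per 10% GC) and next in hypoxia siARNT C (0.238), and lay between -0.205 and 0.12 in the other 10. Replicates were wells of 1 cell line, so the p-values measure only the spread between these samples.

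Per base of exon, the brain-type phosphorylase PYGB and the UDP-glucose maker UGP2 were the most abundant of the 9. In normoxia siControl the order, as fragments per kb of exon per M counts (FPKM), was PYGB at 37.9 ± 3.74, UGP2 at 26.1 ± 1.2, PGM1 at 12.4 ± 0.269, PPP1R3B at 10.4 ± 0.246, GBE1 at 8.23 ± 0.565, PPP1R3D at 5.03 ± 0.347 and GYS1 at 3.84 ± 0.509 (SD, n = 3). PPP1R3C at 0.0436 ± 0.0133 and the liver-type phosphorylase PYGL at 0.0193 ± 0.00808 FPKM came last. No neighbours in this order overlapped over the 3 libraries. In hypoxia siControl, PPP1R3B passed PGM1 to become the third (25.7 ± 0.953 against 19.7 ± 0.677 FPKM), and PYGB at 36.8 ± 7.40 and UGP2 at 30.5 ± 2.53 FPKM overlapped. GYS1 and PPP1R3D overlapped in both siARNT groups, as did PPP1R3C and PYGL.

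**Figure D1:**
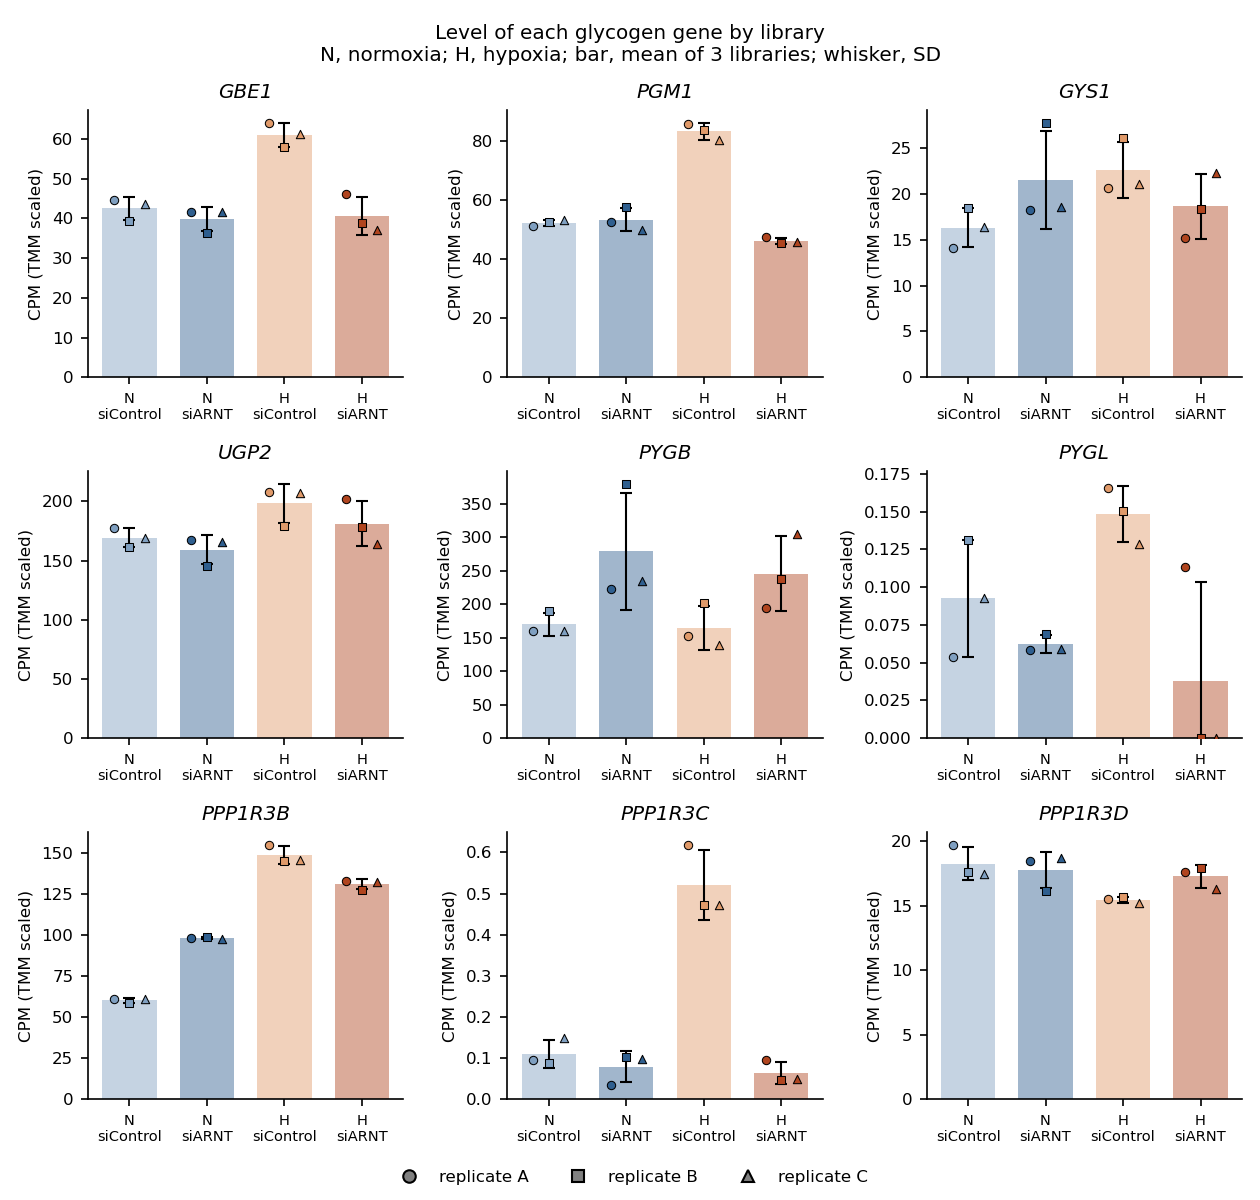
Level of each of the 9 glycogen genes (CPM, linear axis from 0) in the 12 libraries; bars are means of 3 libraries, whiskers are SD and symbols are replicates. PGM1, GBE1 and PPP1R3C stand highest in hypoxia siControl, PPP1R3B takes 4 separate levels from 60.0 to 148.5 CPM, and PYGB is highest in normoxia siARNT B at 379.5 CPM.

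In siControl cells, hypoxia raised 4 of the 8 tested genes at an edgeR adjusted p under 0.05: PPP1R3B, PGM1, GBE1 and PPP1R3C. None fell. The same threshold called 25.3% of all tested genes (10.4% as rises and 14.9% as falls). The median log2 fold change of the 8 was 0.50, against 0.02 over all genes tested, and in 7 of the 8 the hypoxia libraries did not overlap the normoxia libraries, which held for 46.8% of all genes. PPP1R3C passed the filter on low counts only through its hypoxia siControl libraries and so had to differ from the other groups here and with siARNT in hypoxia; without it, 3 of 7 rose, 6 of 7 did not overlap and the median was 0.47. In siARNT cells, hypoxia raised 1 of the 8, PPP1R3B, against 4.09% of all genes called (2.21% as rises and 1.89% as falls), and the median was -0.10 (all genes, -0.04). In 2 of the 8 these groups did not overlap, as in 22.2% of all genes.

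With siARNT in hypoxia, 4 of the 8 fell (PPP1R3C, PGM1, GBE1 and PPP1R3B) and none rose, where 29.1% of all genes were called (14.4% as rises and 14.7% as falls). The median was -0.23 (all genes, 0.02), and 5 of the 8 did not overlap (40.3% of all genes). Without PPP1R3C, 3 of 7 fell, 4 of 7 did not overlap and the median was -0.18. With siARNT in normoxia, PYGB and PPP1R3B rose and none fell, against 20.2% of all genes called (9.42% as rises and 10.8% as falls); 2 of the 8 did not overlap (46.5% of all genes). The interaction subtracts the log2 hypoxia effect of siControl cells from that of siARNT cells. It was called for PGM1 and PPP1R3B, both below 0, where 4.69% of all genes were called (2.49% above 0 and 2.19% below). These comparisons share libraries in pairs, the hypoxia siControl libraries among them, so a rise with hypoxia and a fall with siARNT are not separate observations.

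**Figure D2:**
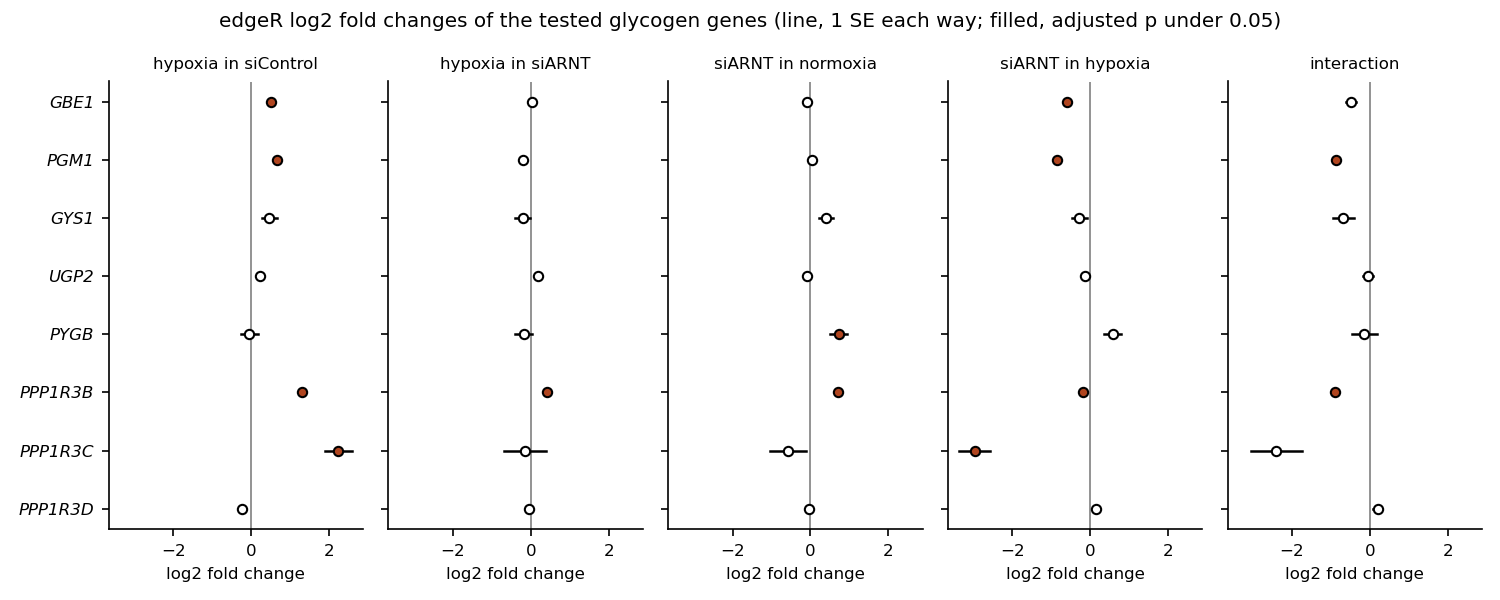
edgeR log2 fold changes of the 8 tested glycogen genes in the 5 comparisons; lines reach 1 SE each way and filled points passed an adjusted p of 0.05. PPP1R3B is filled in all 5 panels, PGM1 in 3, and GBE1 and PPP1R3C in the same 2, hypoxia in siControl and siARNT in hypoxia.

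PGM1 (ENSG00000079739.11, chr1:63593276-63660245 of GRCh38, plus strand) is phosphoglucomutase, which interconverts glucose 6-phosphate and glucose 1-phosphate. It stood at 51.0, 52.3 and 53.2 CPM in normoxia siControl and rose to 85.7, 83.5 and 80.0 CPM in hypoxia siControl. The normoxia siARNT libraries held 52.4, 57.5 and 49.9 CPM and the hypoxia siARNT libraries 47.2, 45.4 and 45.65 CPM. Only the hypoxia siControl libraries were high, and all 3 hypoxia siARNT libraries lay below the 9 others. In siControl, PGM1 rose with hypoxia by 0.67 on the log2 scale (SE 0.061, edgeR adjusted p = 1.58e-05). In siARNT the value was -0.21 and did not pass (adjusted p = 0.0757), although the groups did not overlap. The interaction was -0.88 (SE 0.086, adjusted p = 0.000192). With siARNT, PGM1 fell by 0.85 on the log2 scale in hypoxia (SE 0.061, adjusted p = 1.55e-06), and the value in normoxia was 0.03.

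The bases before a RefSeq start of PGM1, GBE1, UGP2 and PPP1R3C are shown. They were chosen because these genes or their first exons were highest in hypoxia siControl. The HIF binding core, ACGTG or GCGTG, can also be looked for in them. In the RefSeq promoter table (GRCh38.p14), the 250 bases before a start held ACGTG on either strand in 18.5% of 35116 windows, GCGTG in 32.2% and at least 1 of them in 43.2%. The table held 11 windows for 8 of the 9 genes (none for PPP1R3B), of which 5 held ACGTG, 6 held GCGTG and 8 held at least 1. A match is a description of the letters and does not show that a factor binds. Capitals mark the matches, which read as CACGT or CACGC on the other strand, and each sequence is written 5′ to 3′ along its gene. For PGM1 and GBE1 only 30 bases round a match are given, since exons of longer transcripts lie in these windows.
PGM1, chr1:63593761-63593790, plus strand: tgtgcaccctggcGCGTGtgcgACGTGcgg
GBE1, chr3:81761741-81761770, minus strand: ctacccgctccggACGTGcgtcccggcatc

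In the PGM1 stretch the matches begin 35 bases (GCGTG) and 26 bases (ACGTG) before the start at position 63593809. A further GCGTG of this window, 156 bases before that start, lies in exon bases. PGM1 also has an earlier RefSeq start at position 63593411, so the stretch lies inside the gene. Which start the counted PGM1 reads come from was not tested. In GBE1 the match begins 112 bases before the start at position 81761645, and a GCGTG lies 156 bases before it. The other 2 PGM1 windows and the PYGL window held neither motif. The windows of GYS1 and PYGB held 2 GCGTG each, and that of PPP1R3D a palindromic CACGTG, in which ACGTG reads on both strands.

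GBE1 (ENSG00000114480.8, chr3:81489699-81762161, minus strand) is the branching enzyme. It stood at 44.8, 39.3 and 43.7 CPM in normoxia siControl, 41.7, 36.3 and 41.6 CPM in normoxia siARNT, 64.0, 58.0 and 61.2 CPM in hypoxia siControl and 46.2, 38.8 and 37.1 CPM in hypoxia siARNT. The hypoxia siControl libraries lay above all 9 others, which overlapped with each other. Hypoxia raised GBE1 by 0.52 on the log2 scale in siControl (SE 0.092, edgeR adjusted p = 0.00154), and the value in siARNT was 0.03 (adjusted p = 0.873). With siARNT it fell by 0.59 in hypoxia (SE 0.092, adjusted p = 0.000561). The interaction of -0.49 (SE 0.13) missed the threshold (adjusted p = 0.0555) and passed it under 8 of 20 alternatives, DESeq2 among them (adjusted p = 0.0382).

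GYS1 (ENSG00000104812.10, chr19:48968125-48993310, minus strand) is the muscle-type glycogen synthase, the enzyme that lengthens the chain outside the liver. It stood at 14.1, 18.4 and 16.4 CPM in normoxia siControl and at 20.6, 26.1 and 21.1 CPM in hypoxia siControl, which did not overlap. In siARNT it stood at 18.2, 27.7 and 18.6 CPM in normoxia and at 15.2, 18.4 and 22.3 CPM in hypoxia, which overlapped. GYS1 passed in none of the 5 comparisons; with hypoxia in siControl the log2 fold change was 0.47 (SE 0.186, edgeR adjusted p = 0.0883). That value passed under 7 of 21 alternatives, among them DESeq2 (adjusted p = 0.0402), a replicate block (0.0201), a fit of only the 6 libraries compared (0.0163) and a fit without normoxia siARNT B (0.0246). GYS1 is 58.7% GC, and its highest library, normoxia siARNT B, is the one with the steepest GC slope. With a GC term per library, which called 42.3% of all genes for hypoxia in siControl, GYS1 was higher there by 0.32 (adjusted p = 0.000308). With the same term it was lower by siARNT in hypoxia (-0.33, adjusted p = 0.000231; 46.0% of all genes called) and in the interaction (-0.36, adjusted p = 0.00679; 18.0% called), while the value of siARNT in normoxia went from 0.40 to 0.03.

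UGP2 (ENSG00000169764.10, chr2:63840940-63891562, plus strand) makes UDP-glucose from glucose 1-phosphate and UTP. It stood at 177.2, 161.6 and 169.4 CPM in normoxia siControl and at 208.3, 179.5 and 207.5 CPM in hypoxia siControl, which did not overlap. The siARNT libraries held 167.1, 145.3 and 165.5 CPM in normoxia and 201.8, 178.0 and 163.9 CPM in hypoxia, which overlapped. Hypoxia gave a log2 fold change of 0.23 in siControl (edgeR adjusted p = 0.0847) and 0.19 in siARNT (adjusted p = 0.259), and the interaction was -0.04 (adjusted p = 0.868). UGP2 passed in none of the 5 comparisons. The value in siControl passed under 5 of 21 alternatives, among them a replicate block (adjusted p = 0.0298), a fit of only the 6 libraries compared (0.0302) and a fit without hypoxia siControl B (0.31, adjusted p = 0.0368). With the GC term the hypoxia values were 0.26 (adjusted p = 1.94e-05) in siControl and 0.12 (adjusted p = 0.0236; 22.4% of all genes called) in siARNT.

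UGP2 starts from more than 1 first exon, and the deposited splice junction reads tell these apart. In GENCODE 29, 13 transcripts hold an upstream first exon (chr2:63840954-63841232, 279 bases, with no coding bases in any of them) and 9 hold a downstream exon of 146 bases (chr2:63842059-63842204), in which 8 of the 9 start and 3 have coding bases. Both are joined to the second exon (chr2:63856306-63856433). The event coordinates are in a build that could not be matched by position, so these exons were found by their lengths and intron lengths, which 1 annotated transcript matched. The sequences before the upstream start, up to the first annotated exon, and round the match before the downstream start are shown because the reads from the downstream exon differed between groups. The downstream start is the RefSeq one at position 63841896, which lies before the 146-base exon. The 30 bases shown for it lie in an annotated exon, and whether the counted reads begin at that start was not tested.
UGP2 upstream start, chr2:63840719-63840939, plus strand: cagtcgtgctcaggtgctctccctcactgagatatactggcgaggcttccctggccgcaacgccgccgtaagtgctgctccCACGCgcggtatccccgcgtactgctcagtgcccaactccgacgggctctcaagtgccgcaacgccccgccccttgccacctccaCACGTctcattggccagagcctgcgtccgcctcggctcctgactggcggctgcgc
UGP2 downstream start, chr2:63841795-63841824, plus strand: acagccctggaggGCGTGgggacttggggg

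The downstream exon is joined to an outer acceptor of the second exon or to an inner one 24 bases further in. Reads to the outer acceptor numbered 1.08, 1.27 and 1.33 per M gene counts in normoxia siControl and 2.51, 2.57 and 2.17 per M in hypoxia siControl. In siARNT they numbered 0.806, 0.569 and 1.04 per M in normoxia and 1.03, 1.45 and 1.19 per M in hypoxia. For these reads the hypoxia siControl libraries were above all others, and the hypoxia siARNT libraries overlapped normoxia siControl. Reads to the inner acceptor were 0.821 ± 0.0481 per M in normoxia and 1.02 ± 0.159 per M in hypoxia in siControl cells. In siARNT cells they were 0.936 ± 0.0791 and 0.884 ± 0.145 per M, and hypoxia siControl overlapped each siARNT group. Hypoxia siControl did not overlap normoxia siControl for these reads (0.9 to 1.2 against 0.782 to 0.875 per M). Reads that join the upstream first exon to the second were 3.54 ± 0.0833 per M in normoxia and 3.6 ± 0.493 per M in hypoxia in siControl cells, and 4.77 ± 0.140 and 4.57 ± 0.205 per M in siARNT cells (SD, n = 3). They did not overlap between siControl and siARNT in either oxygen state. Reads that join the upstream first exon to the downstream exon, as a skipped exon would give, were 0 to 5 per library.

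**Figure D3:**
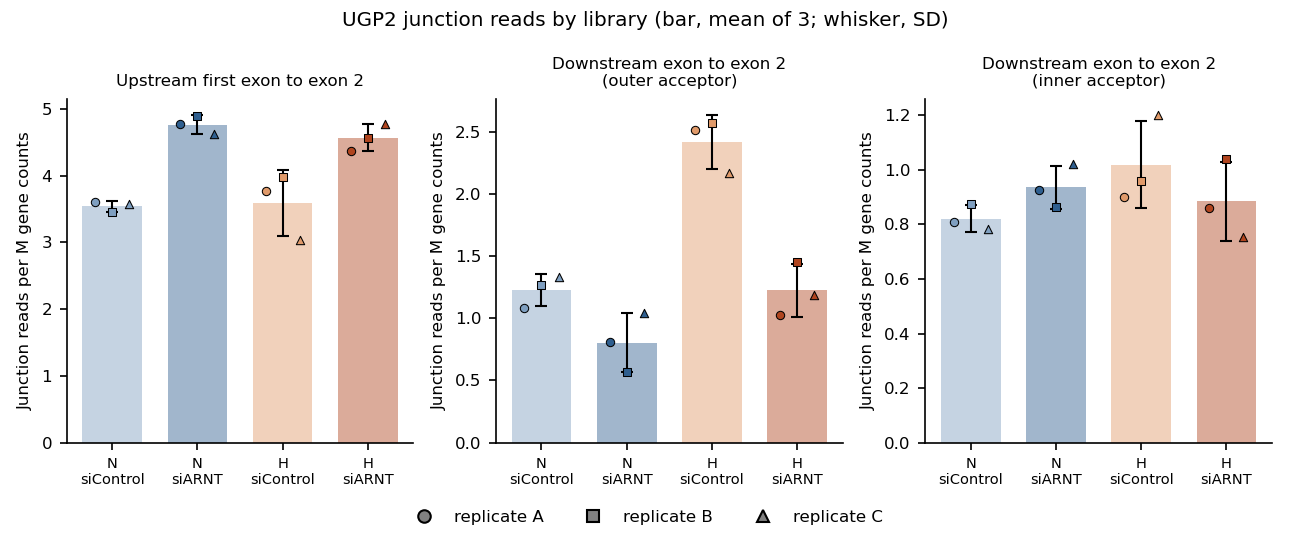
UGP2 junction reads per M gene counts (linear axis from 0) in the 12 libraries for the upstream first exon and for the downstream exon joined to the outer or the inner acceptor of the second exon; bars are means of 3, whiskers SD. Reads from the downstream exon to the outer acceptor stand at 2.42 ± 0.216 per M in hypoxia siControl and between 0.805 and 1.23 per M on average in the other 3 groups.

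Of the reads that join either exon to the outer acceptor of the second, those from the downstream exon made up 23.1, 26.9 and 27.1% in normoxia siControl and 40.0, 39.3 and 41.7% in hypoxia siControl. In siARNT they made up 14.4, 10.4 and 18.3% in normoxia and from 19.0 to 24.1% in hypoxia. In each oxygen state the siARNT libraries lay below the siControl libraries, and hypoxia siARNT overlapped normoxia siControl. The authors' event files record these reads as a skipped exon. Their percent spliced in (PSI) averages the junctions on both sides of that exon, and since the junction to the upstream exon is near 0, the PSI is well below the share of reads. It stood at 13.3, 15.5 and 16.1% in normoxia siControl, 25.5, 24.6 and 26.9% in hypoxia siControl, 7.8, 5.6 and 10.8% in normoxia siARNT and 10.5, 13.7 and 11.1% in hypoxia siARNT. The log2 odds of the PSI were higher by 0.97 with hypoxia in siControl (SE 0.24), which did not pass over the 40247 events tested (limma adjusted p = 0.377, and 0.218 to 0.71 over the alternatives). The interaction was -0.32 (adjusted p = 0.906). In simulated data the hypoxia test recovered 0% of events changed by 1 log2 odds, so a miss at this size does not show an unchanged PSI. From the downstream exon, the share of reads to the inner acceptor went from 40.2 ± 2.85% to 29.7 ± 5.11% with hypoxia in siControl (limma adjusted p = 0.643), and the outer acceptor's reads are the same reads as above. This pair of events was singled out after the values were seen.

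Of 16 events recorded in the 9 genes (10 in UGP2, 5 in PYGB and 1 in GBE1), 13 had at least 20 supporting reads in every library and none was called by limma for hypoxia in siControl or for the interaction; 4 had an unadjusted p under 0.05 for hypoxia in siControl, against 6.32% of all events. These 4, all in UGP2, come in pairs that are not separate: 2 share the reads of the downstream exon described above, and the other 2 have mirrored log2 odds of 2.89 and -2.89. Over all events 0.0596% were called for hypoxia and 0.0447% for the interaction. As the test recovered 0% of simulated events changed by 1 log2 odds, events that were not called may still have changed. In 10 of the 13 the rarer form stayed under 10% in every library. The 6 with the most reads, 5 in UGP2 and 1 in PYGB, had a rarer form of at most 3.8% in any library and a lowest limma adjusted p of 0.787 for hypoxia in siControl.

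PPP1R3B (ENSG00000173281.4, on the minus strand of chromosome 8) is the targeting subunit of protein phosphatase 1 best known from liver. It stood at 60.8, 58.4 and 60.9 CPM in normoxia siControl, 98.2, 98.5 and 97.6 CPM in normoxia siARNT, 154.8, 145.2 and 145.4 CPM in hypoxia siControl and 132.8, 127.2 and 132.2 CPM in hypoxia siARNT. The 4 groups did not overlap. Hypoxia raised it 2.47-fold in siControl (log2 1.31, SE 0.05, edgeR adjusted p = 3.65e-08) and 1.33-fold in siARNT (log2 0.41, SE 0.049, adjusted p = 0.00207). The interaction was -0.89 (SE 0.069, adjusted p = 3.42e-05).

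With siARNT, PPP1R3B moved in opposite directions in the 2 oxygen states. In normoxia it rose 1.63-fold (log2 0.71, SE 0.049, edgeR adjusted p = 3.57e-06). In hypoxia it fell by 0.18 on the log2 scale (SE 0.049, adjusted p = 0.0143). This fall missed the threshold under 5 of 20 alternatives, with total count scaling among them (-0.10, adjusted p = 0.105). It also missed without hypoxia siControl A (-0.15, adjusted p = 0.085) or without hypoxia siARNT B (-0.16, adjusted p = 0.0703). The rise with hypoxia in siARNT missed when only those 6 libraries were fitted (0.43, adjusted p = 0.0678).

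PPP1R3C (ENSG00000119938.8, chr10:91628442-91633054, minus strand), also called protein targeting to glycogen, is a further targeting subunit and a known hypoxia-responsive gene. It was rare: the 3 libraries held 7, 4 and 8 counts in normoxia siControl, 3, 6 and 5 in normoxia siARNT, 41, 22 and 22 in hypoxia siControl and 5, 2 and 2 in hypoxia siARNT. Every hypoxia siControl library was above the 9 others, at 0.6185, 0.473 and 0.472 CPM. The log2 fold change with hypoxia in siControl was 2.24 (SE 0.341, edgeR adjusted p = 0.000576), and that of siARNT in hypoxia was -2.96 (SE 0.397, adjusted p = 0.000171). The interaction of -2.40 (SE 0.648) did not pass (adjusted p = 0.059). DESeq2 gave no adjusted p for it in any comparison but siARNT in hypoxia (5.4e-05). Counts this low leave the size of each fold uncertain. PPP1R3C also passed the count filter only through its hypoxia siControl libraries. A difference in these 2 comparisons was thus set by the filter, and their adjusted p-values are no support for it. Its window is shown whole because no annotated exon lies in it and it has the most ACGTG matches of the windows listed, 4 readings at 3 places.
PPP1R3C, chr10:91633072-91633321, minus strand: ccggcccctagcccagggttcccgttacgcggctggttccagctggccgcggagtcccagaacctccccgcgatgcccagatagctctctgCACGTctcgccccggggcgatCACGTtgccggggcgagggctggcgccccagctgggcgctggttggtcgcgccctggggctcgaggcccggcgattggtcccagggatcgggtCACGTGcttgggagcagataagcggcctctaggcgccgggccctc

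The matches in the PPP1R3C window begin 159, 138 and 45 bases before the start at position 91633071. The last is the palindrome CACGTG, in which ACGTG reads on both strands.

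PPP1R3D (ENSG00000132825.5, chr20:59936668-59940297, minus strand) is a more widely expressed targeting subunit, and the only one of the 8 tested genes whose 3 hypoxia siControl libraries all lay below the 9 others. It stood at 19.7, 17.6 and 17.5 CPM in normoxia siControl and at 15.5, 15.6 and 15.2 CPM in hypoxia siControl, which did not overlap. The siARNT libraries held 18.5, 16.2 and 18.7 CPM in normoxia and 17.6, 17.9 and 16.3 CPM in hypoxia, which overlapped. The log2 fold change with hypoxia in siControl was -0.24 (SE 0.083) and missed the threshold narrowly (edgeR adjusted p = 0.0502). It passed under 6 of 21 alternatives, among them total count scaling (-0.27, adjusted p = 0.0299). The FAM217B exons on the other strand share 123 bases with those of PPP1R3D, and the sources used here do not say whether the counting used strand. The same holds for 197 bases of PGM1 and ITGB3BP and 245 bases of PPP1R3B and AC022784.5, each under 5% of the exon bases.

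PYGB (ENSG00000100994.7, chr20:25248069-25298014, plus strand) is the brain-type glycogen phosphorylase, which releases glucose 1-phosphate from the chain. It stood at 159.6, 189.1 and 160.6 CPM in normoxia siControl and at 152.4, 202.0 and 139.2 CPM in hypoxia siControl, which overlapped (log2 fold change -0.04, SE 0.221, edgeR adjusted p = 0.908). The siARNT libraries held 222.4, 379.5 and 234.4 CPM in normoxia, all above normoxia siControl, and 193.9, 237.1 and 304.8 CPM in hypoxia, which overlapped hypoxia siControl. With siARNT in normoxia it rose by 0.72 (SE 0.222, adjusted p = 0.0432). The value in hypoxia was 0.58 and did not pass (adjusted p = 0.0741); it passed under 7 of 20 alternatives, among them DESeq2 (adjusted p = 0.0274), a replicate block (0.0263) and a fit without normoxia siARNT B (0.0126), hypoxia siARNT A (0.0356) or hypoxia siControl B (0.0449). PYGB was the only one of the 8 genes with a positive value above 0.5 for siARNT in both oxygen states.

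The PYGB call in normoxia held under 11 of 20 alternatives. Without normoxia siARNT B it was 0.42 (adjusted p = 0.139). PYGB is 58.5% GC, and its 2 highest libraries, normoxia siARNT B and hypoxia siARNT C, are those with the steepest GC slopes. With the GC term the values were 0.34 in normoxia (adjusted p = 0.000529; 32.2% of all genes called) and 0.53 in hypoxia (adjusted p = 3.87e-06), and hypoxia in siControl gave -0.20 (adjusted p = 0.0146). That term fits the GC trend of each library over all genes; what part of the PYGB and GYS1 values comes from it and what from siARNT was not tested further.

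**Figure D4:**
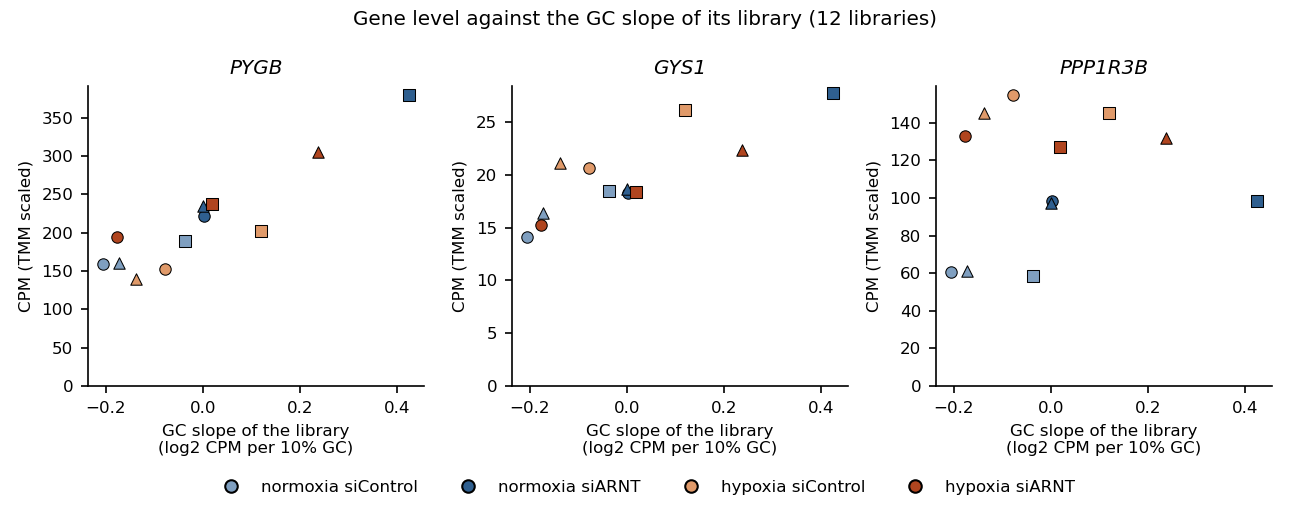
CPM of PYGB, GYS1 and PPP1R3B (linear axis from 0) against the GC slope of each of the 12 libraries, coloured by group and shaped by replicate (circle A, square B, triangle C). PYGB at 58.5% GC and GYS1 at 58.7% GC are highest in the library with the steepest slope, 0.424, while PPP1R3B at 45.6% GC groups by treatment.

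PYGL (ENSG00000100504.12, chr14:50857891-50944736, minus strand), the liver-type phosphorylase, was close to 0, with 4, 6 and 5 counts in normoxia siControl, 5, 4 and 3 in normoxia siARNT, 11, 7 and 6 in hypoxia siControl and 6, 0 and 0 in hypoxia siARNT. The groups' summed counts were 15, 12, 24 and 6. Counts this low left PYGL out of the main test, and what size of difference could be detected was not tested. Without the filter on low counts its log2 fold change was 0.77 with hypoxia in siControl (edgeR adjusted p = 0.558) and -1.75 with siARNT in hypoxia (adjusted p = 0.102).

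Over the 12 libraries, the log2 CPM of GBE1 and PGM1 had a Pearson r of 0.88, that of GBE1 and UGP2 0.82, that of UGP2 and PYGB -0.75 and that of GYS1 and PPP1R3D -0.75. These are descriptions over libraries that share 4 groups and their GC slopes. Among 9854 genes averaging 5 CPM or more, those most like PGM1 were APOL2 (r = 0.98), FHL2 and RNASET2, those most like GBE1 were PHACTR3 (0.983), OPN3 and GOLGA8A, and those most like PPP1R3B were SIK2 (0.991), CDH1 and INSR. UGP2 was most like CCDC6 (0.992), HERC4 and CAST, and PYGB most like KIF1C (0.995), CHPF and DPP3. GYS1 was most like RAB40C (0.981), RPL10 and TMEM94, and PPP1R3D most like COX16 (0.947), SRSF3 and EIF4E.

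Beyond the 9 genes, 28 others of the glycogen route were listed, and 24 were tested. Hypoxia in siControl raised 4 of them (PPP1R3G, STBD1, PPP1R3F and PGM2L1) and lowered 5 (EPM2A, GYG1, NHLRC1, PHKA1 and PGM2), which is 37.5% of the 24 against 25.3% of all genes (10.4% as rises and 14.9% as falls). PPP1R3G is in these counts although it passed the filter on low counts only through its hypoxia libraries. That favoured its rise here and its fall with siARNT in hypoxia, counted below. The median of the 24 was 0.04, against 0.02 over all genes. Hypoxia in siARNT called 0 of the 24 with edgeR, against 4.09% of all genes, and 0 with DESeq2. An unadjusted edgeR p under 0.05 was found in 4 of the 24 and in 3605 of all 16999 genes. With the GC term 6 of the 24 were called, 2 as rises and 4 as falls, against 22.4% of all genes. With siARNT in normoxia 2 rose and 3 fell, and in hypoxia 1 rose and 4 fell; each is 20.8% of the 24, against 20.2% of all genes in normoxia and 29.1% in hypoxia. The interaction was called in 2, GYG1 and STBD1 (8.33%, against 4.69% of all genes). The synthase GYS2, the primer GYG2, the muscle subunit PPP1R3A and the glucose 6-phosphatase G6PC1 were too rare to be tested.

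GYG1, glycogenin, which primes a new chain, went the other way from PGM1 and GBE1. It stood at 37.8, 37.5 and 35.2 CPM in normoxia siControl, 31.2, 29.2 and 32.2 CPM in normoxia siARNT, 23.0, 20.6 and 23.2 CPM in hypoxia siControl and 33.1, 28.97 and 24.3 CPM in hypoxia siARNT. Hypoxia siControl was below all other libraries. The fall with hypoxia in siControl was -0.73 (SE 0.101, edgeR adjusted p = 0.000329), and in siARNT the value was -0.10 (adjusted p = 0.601). The interaction of 0.63 (SE 0.142, adjusted p = 0.0303) held under 10 of 20 alternatives. With siARNT in hypoxia GYG1 rose by 0.37 (SE 0.101, adjusted p = 0.0158).

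STBD1, which carries glycogen to the lysosome, held 11, 21 and 10 counts in normoxia siControl, 18, 14 and 9 in normoxia siARNT, 42, 38 and 34 in hypoxia siControl and 5, 6 and 4 in hypoxia siARNT. It rose by 1.53 with hypoxia in siControl (SE 0.334, edgeR adjusted p = 0.00549) and fell by 2.69 with siARNT in hypoxia (SE 0.401, adjusted p = 0.000373). Its interaction was -2.45 (SE 0.57, adjusted p = 0.0338), a call that held under 10 of 19 alternatives. PPP1R3G, a further targeting subunit, was as rare as PPP1R3C, with 6, 5 and 8 counts in normoxia siControl and 56, 41 and 27 in hypoxia siControl (log2 2.79, SE 0.433, adjusted p = 0.000673). With siARNT it held 4, 11 and 7 counts in normoxia and 6, 12 and 13 in hypoxia, and the log2 fold change of siARNT in hypoxia was -1.74 (SE 0.40, adjusted p = 0.00646). No normoxia library of PPP1R3G reached the level of the count filter, so it was tested through its hypoxia libraries (3 in siControl and 2 in siARNT), which favoured these calls.

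PGM2L1, which makes the bisphosphate cofactor of phosphoglucomutase, stood in siControl cells at 3.62 ± 0.210 CPM (normoxia) and 5.10 ± 0.531 CPM (hypoxia), and at 1.99 ± 0.128 and 1.88 ± 0.237 CPM in siARNT cells (SD, n = 3). Hypoxia raised it by 0.50 in siControl (edgeR adjusted p = 0.011). Under siARNT it was lower in both oxygen states, by log2 fold changes of -0.86 in normoxia (adjusted p = 0.000843) and -1.44 in hypoxia (adjusted p = 8.32e-06). Both laforin and malin, the phosphatase and the ubiquitin ligase lost in Lafora disease, were lower with hypoxia in siControl. EPM2A (laforin) went from 3.14 ± 0.235 to 1.685 ± 0.027 CPM (log2 -0.90, adjusted p = 0.0012) and NHLRC1 (malin) from 1.95 ± 0.289 to 1.26 ± 0.254 CPM (log2 -0.63, adjusted p = 0.0304, a call that held under 17 of 21 alternatives). In siARNT cells neither passed with hypoxia, and in neither gene did the groups overlap. The log2 fold change there was -0.40 for EPM2A (adjusted p = 0.158) and -0.63 for NHLRC1 (adjusted p = 0.0876). The interaction was 0.50 for EPM2A (adjusted p = 0.214) and -0.01 for NHLRC1 (adjusted p = 0.984). With the GC term each passed for hypoxia in siARNT, EPM2A at -0.47 (edgeR adjusted p = 0.0241) and NHLRC1 at -0.59 (adjusted p = 0.0437).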

How the data were processed

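Poly(A)-selected RNA of 12 AsPC-1 wells was read single-end from stranded libraries, per the labels' protocols. The authors deposited HTSeq gene counts per library; Trimmomatic, STAR 2.4.2a and GRCh38.p10 are named in the submitters' processing notes, and the counter's settings are not given in the sources used here. Lines that name no gene held 22.71 to 25.2% of reads and were left out of library sizes. The deposited event tables hold junction read counts, the fraction spliced in, and intron coverage (a signal) for 6 kinds of event, per the file headers; the fraction was recomputed from the counts, with the junctions on both sides of a skipped exon averaged. Symbols matched 51996 of 57820 IDs (99.35% of counts). Gene positions, exon lengths and GC content are from GENCODE 29.

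The gene test was edgeR 4.0.16 in R 4.3.3 (TMM, filterByExpr, robust quasi-likelihood F tests), fitted to all 12 libraries with a mean for each group. P-values were Benjamini-Hochberg adjusted over all genes of a comparison, and called under 0.05. Events with a support of at least 20 in every library were tested with limma 3.58.1 on log2 odds with a pseudocount of 0.5. DESeq2 1.42.0 was an alternative. Both tests were tested on simulated data. The limma trend was set on the support of the rarer form after a first version had recovered no simulated event, and the pass limit of both checks was then set on the better-supported features. The version used still recovered 0% of simulated events changed by 1 log2 odds, and 48% of those changed by 2. All tested members and ARNT are named, with up to 6 other pathway genes (most comparisons called, ties by the largest absolute log2 fold change for hypoxia in siControl), the 3 genes most like each member, and up to 6 events (called first, then support). The members and lists were chosen with earlier results of these data known. Whether replicate letters pair the libraries was checked on deviations from group means. Same-letter correlations ran from -0.43 to 0.52. Some were above those with other letters (siARNT in normoxia, B: 0.41 against at most -0.28). Others were below the highest of these (hypoxia in siARNT, C: -0.43 against 0.44). This did not settle the pairing, and the main fit did not treat the letters as pairs. The alternatives were other size factors, total count scaling, no filter, DESeq2, only the libraries compared, and each library left out. Further ones were a GC offset per library, a replicate block, both together, and a block for each siRNA and replicate letter.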

Additional observations from a re-analysis of the deposited data

Results flagged for a closer look

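Among the 8 tested members and the 24 other tested genes of the glycogen route, 4 were called by the edgeR interaction test. In these the response to hypoxia differed between siARNT and siControl. The same test called 797 of all 16999 genes (4.69%). The differences, as log2 fold change in siARNT minus siControl, were -0.88 for PGM1 (0.67 in siControl, -0.21 in siARNT), -0.89 for PPP1R3B (1.31 and 0.41), 0.63 for GYG1 (-0.73 and -0.10) and -2.45 for STBD1, which held at most 42 counts in a library. The PGM1 and PPP1R3B differences passed under all 20 alternatives. That of GYG1 passed under 10 of 20 and that of STBD1 under 10 of 19.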

How the results depend on the processing

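Of 13 calls of the 9 genes, 10 held under every alternative that gave an adjusted p; DESeq2 gave none for PPP1R3C with hypoxia in siControl, and its 4 calls there were GBE1, PGM1, GYS1 and PPP1R3B. The exceptions were PYGB with siARNT in normoxia and PPP1R3B with siARNT in hypoxia and with hypoxia in siARNT. The 10 include the PPP1R3C calls with hypoxia in siControl and with siARNT in hypoxia. These had to differ through the count filter, so that they held is no support. A GC offset per library moved most counts. It called 7192, 3803, 5469, 7817 and 3064 genes (in turn for hypoxia in siControl and in siARNT, siARNT in normoxia and in hypoxia, and the interaction), against 4299, 696, 3431, 4948 and 797, and 8, 3 and 5 of the 8 members for hypoxia in siControl and in siARNT and for the interaction, against 4, 1 and 2. The replicate block alone called 4740, 862, 4732, 5425 and 960 genes and lowered splice events for hypoxia in siControl from 24 to 14; with the GC offset it called 7449, 4055, 5857, 8056 and 3304 genes, and 8, 3 and 5 members. A block for each siRNA and replicate letter, shared by normoxia and hypoxia, called 136 genes for hypoxia in siARNT and 373 for the interaction. The labels do not say that these libraries belong together. Fits of only the libraries compared called 5678 of 16999 genes and 7 members for hypoxia in siControl. They called 22 genes and 0 members for hypoxia in siARNT, and 2521 genes and 1 member for siARNT in normoxia. With no filter, 2636 of 34964 genes and 1 member were called for siARNT in normoxia. Total count scaling called 1495 genes and 4 members in the interaction, and raised the share of calls above 0 from 53.9 to 65.8% for hypoxia in siARNT, from 49.6 to 63.8% for siARNT in hypoxia (where it moved the median of all genes by 0.104) and from 53.2 to 75.3% in the interaction; the GC offset lowered it to 37.9% for hypoxia in siARNT. Reversed with the GC offset, with and without the replicate block, were GBE1 for hypoxia in siARNT (-0.05) and siARNT in normoxia (0.04), UGP2 for siARNT in normoxia (0.06), and the interactions of PYGB (0.19) and ARNT (-0.02); total count scaling took the UGP2 interaction to 0. None of these was a call. With 1 library left out, genes called ran from 129 to 707 for hypoxia in siARNT, 1571 to 4148 for siARNT in normoxia and 272 to 1188 for the interaction, splice events from 16 to 41 and from 24 to 50 (interaction), and members with siARNT in normoxia from 1 to 2. Uncalled values that changed sign so were, for hypoxia in siARNT, GBE1 (-0.05 to 0.09), GYS1 (-0.36 to 0.02), PPP1R3C (-0.60 to 0.14) and PYGB (-0.37 to 0.11); for siARNT in normoxia, PGM1 (-0.04 to 0.07) and PPP1R3D (-0.08 to 0.01); PYGB for hypoxia in siControl (-0.20 to 0.06); and the interactions of PYGB (-0.33 to 0.16) and UGP2 (-0.11 to 0.03). The causes were not tested. Depth limits PPP1R3C, PPP1R3G, STBD1 and PYGL and the event test.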
